A study of Mus musculus with 58 samples.

Results

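DPP4- adipose stem cells (ASC1) of ovariectomized female mice were set against ASC1 of control female mice. The ovariectomized group was the 3 libraries whose titles carry ovariex_ASC1, from plate wells L4, N4 and P4, and the control group was the 8 female control ASC1 libraries from wells A4 to H4, out of 58 libraries in all. From the libraries that the study kept, these were chosen by their labels and not by any measured value. The study sorted ASC from inguinal white adipose tissue (iwat), a subcutaneous fat depot, of C57BL6/J mice with the gate CD45-/CD31-/CD34+, and split them by DPP4 into ASC1 (DPP4-) and ASC2 (DPP4+) for bulk RNA sequencing with SmartSeq3, a full-length method for small inputs. Control, ovariectomized and castrated mice were included, 8 mice per treatment, with gonads removed at 4 weeks of age and the mice killed at 10 weeks after a 4 h fast. Both ASC1 groups shared sex and depot by the labels, and strain, gate and age by the methods of the study. They differed in the removal of the ovaries and, by their wells, in plate rows. Libraries in which the study detected under 8500 genes were discarded by it. By its account 8 libraries passed in each group except control male ASC1 with 7 and ovariectomized ASC1 with 3. The detected genes compared below are therefore those of libraries past this limit. The labels name wells and not animals, so the p-values measure the spread between libraries.

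ASC are the fibroblast-like cells of the fat stroma, which build the extracellular matrix of the tissue and hold the precursors of adipocytes. DPP4+ ASC2 are regarded as the less committed population and DPP4- ASC1 as closer to the adipocyte lineage. Resting fibroblasts of adult tissue are known for high decorin, lumican and fibrillar collagen transcripts and for few transcripts of the mitotic machinery, whereas osteopontin (Spp1), a secreted phosphoprotein that binds integrins and CD44, is known from macrophages, bone cells and activated fibroblasts.

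The 3 ovariectomized libraries differed from the controls in several measures of the whole library. They held 1114321 (L4), 256555 (N4) and 188591 (P4) counts, and the controls 139822 to 893234 with a median of 620044 (exact permutation test of the means, two-sided, p = 0.824, 3 against 8). They contained 11622, 9696 and 9122 detected genes against 10496 to 14385 in the controls, so L4 lay within their range (exact permutation p = 0.0242, adjusted 0.0364). With every library thinned to 106562 counts, the shallowest of the series, this was 7973 to 8052 genes against 9664 to 10036 (exact permutation p = 0.0121, the smallest that 3 against 8 can give, adjusted 0.0364). The share of counts from mitochondrially encoded genes was 2.48, 1.47 and 1.23% in L4, N4 and P4, above the range of 0.478 to 1.17% in the 55 other libraries. Spearman correlations over genes were 0.768 to 0.793 among the 3 libraries and 0.623 to 0.714 between them and the controls. With all 55 other libraries they reached 0.596 to 0.776, so this range overlapped with that among the 3. The mean profile of ovariectomized ASC1 correlated with those of the 7 other groups at 0.739 to 0.808, and the highest value was that with control female ASC2. Any pair of the 7 other groups reached at least 0.896. The part that library quality or handling had in the results was not tested.

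The labels of the controls went against their transcripts in part. Of the 8 libraries labelled control female, 5 (B4, C4, D4, G4 and H4) held 61.4 to 78.7 CPM (counts scaled to a common library size) summed over 4 Y-linked genes, and 6 held reads of Tcf21, a transcription factor of visceral fat stroma. Only E4 and F4 had neither a Y-linked nor a Tcf21 read. Of Xist, the RNA that coats the inactive X chromosome, E4 and F4 held 54 and 35 reads. The other libraries labelled control female ASC1 held 1 to 6 Xist reads. The ovariectomized libraries held 1, 0 and 0 Y-linked reads, 149, 23 and 5 reads of Xist and no read of Tcf21. Tbx15, a transcription factor of subcutaneous fat, was at 37.7, 73.4 and 37.2 CPM in them. In the libraries labelled control female Tbx15 ranged from 0 to 32.1 CPM with a median of 4.76 (log2 difference 2.32, adjusted p = 0.0256), and the call was lost without L4 (2.51) or N4 (1.99) and against E4 and F4 alone (0.84, adjusted p = 0.572). C7, which the study lists as enriched in male ASC, was at 0 to 20.8 CPM in the libraries labelled control female ASC1 and at 122 to 337 CPM in those labelled control male ASC1. In the libraries labelled castrated male ASC2, which held 21 to 75 Y-linked reads, C7 was at 0 to 7.26 CPM. A low C7 level was therefore also measured in libraries with Y-linked reads and a male label. Comparisons with E4 and F4 alone, a set chosen after seeing these reads, are given beside the results where they end a call or move a value.

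Dcn and Spp1, the genes given as markers of the contrast, moved in opposite directions. CPM are the read counts of a gene scaled to a common library size by the trimmed mean of M-values (TMM), log2 differences are ovariectomized over control ASC1, and adjusted p-values are from edgeR's quasi-likelihood test after Benjamini-Hochberg adjustment over 12464 tested genes. Dcn, the collagen-binding proteoglycan decorin, was at 27563, 21694 and 22584 CPM in L4, N4 and P4. The controls lay between 1739 and 3471 CPM with a median of 2129. All 3 ovariectomized libraries were above all 8 controls and above the other 55 libraries, whose highest value was 9180 CPM. The means differed 10.4-fold, and the log2 difference was 3.37 ± 0.27 (SE, adjusted p = 4.6e-15), or 3.55 against E4 and F4 alone. Spp1 was at 53.7, 18.4 and 49.5 CPM in the ovariectomized libraries. The controls held 8109 to 18071 CPM with a median of 12011, and the lowest of all 55 other libraries held 4475 CPM. The groups did not overlap, the mean was 307-fold lower, and the log2 difference was -8.19 ± 0.55 (SE, adjusted p = 9.1e-18), or -8.55 against E4 and F4.

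**Figure D1:**
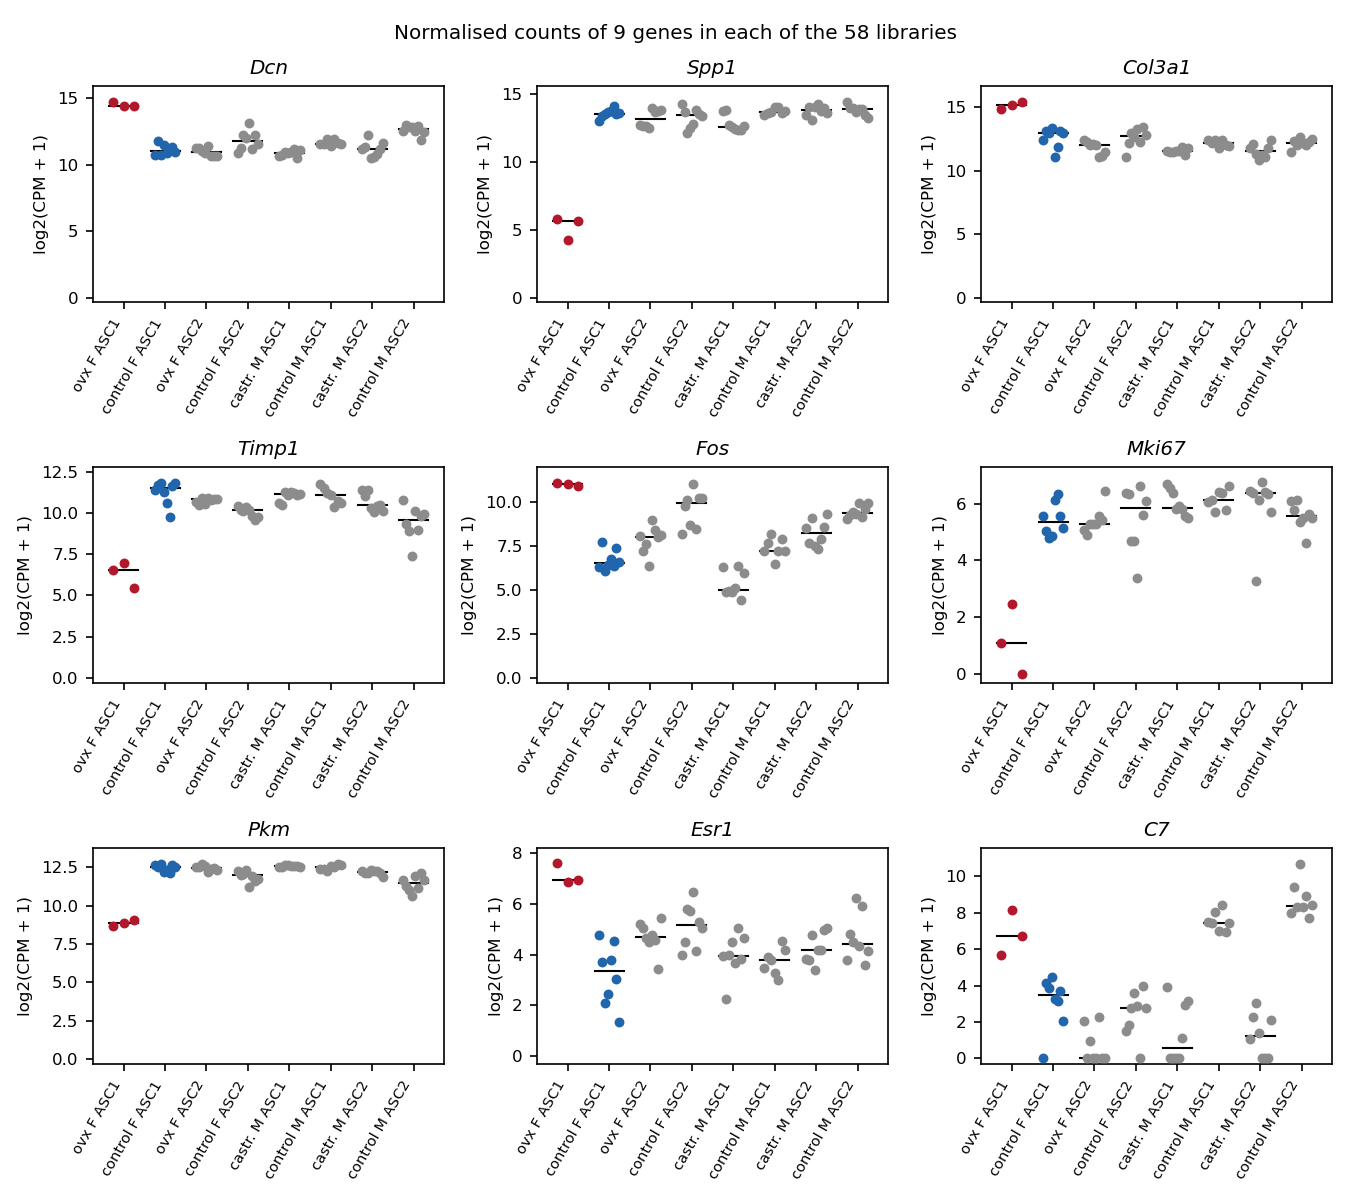
Level of 9 genes, as log2(CPM + 1) on the y axis, in each of the 58 libraries, with the 8 groups along the x axis (F, female; M, male; ovx, ovariectomized; castr., castrated). Points are libraries (red for ovariectomized ASC1, blue for control female ASC1, grey for the others) and horizontal lines are group medians; Dcn lies higher and Spp1 lower in every ovariectomized library than in any control.

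Of the 12464 genes tested, 4336 passed an adjusted p of 0.05, 1584 of them higher in ovariectomized ASC1 (12.7%) and 2752 lower (22.1%). These shares are the background for the list counts below. A change of at least 2-fold was found for 1248 of the genes that rose and 2518 of those that fell. The median over all tested genes was -0.34 on the log2 scale, so the profile leaned towards lower values, and scaling by library size alone moved this median to -0.66 and the calls to 1014 higher and 3798 lower. All 3 ovariectomized libraries lay above all 8 controls for 972 genes (7.8%) and below them for 1639 (13.1%). They lay above all 55 other libraries for 336 genes (2.7%) and below all of them for 510 (4.09%). Of the genes called lower, 637 had no read in any of the 3 libraries. Without library L4, the deepest of the 3, the calls were 798 higher and 1530 lower, and against E4 and F4 alone they were 1272 higher and 2293 lower. In bulk samples fewer cells of a type and less RNA per cell cannot be told apart.

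**Figure D2:**
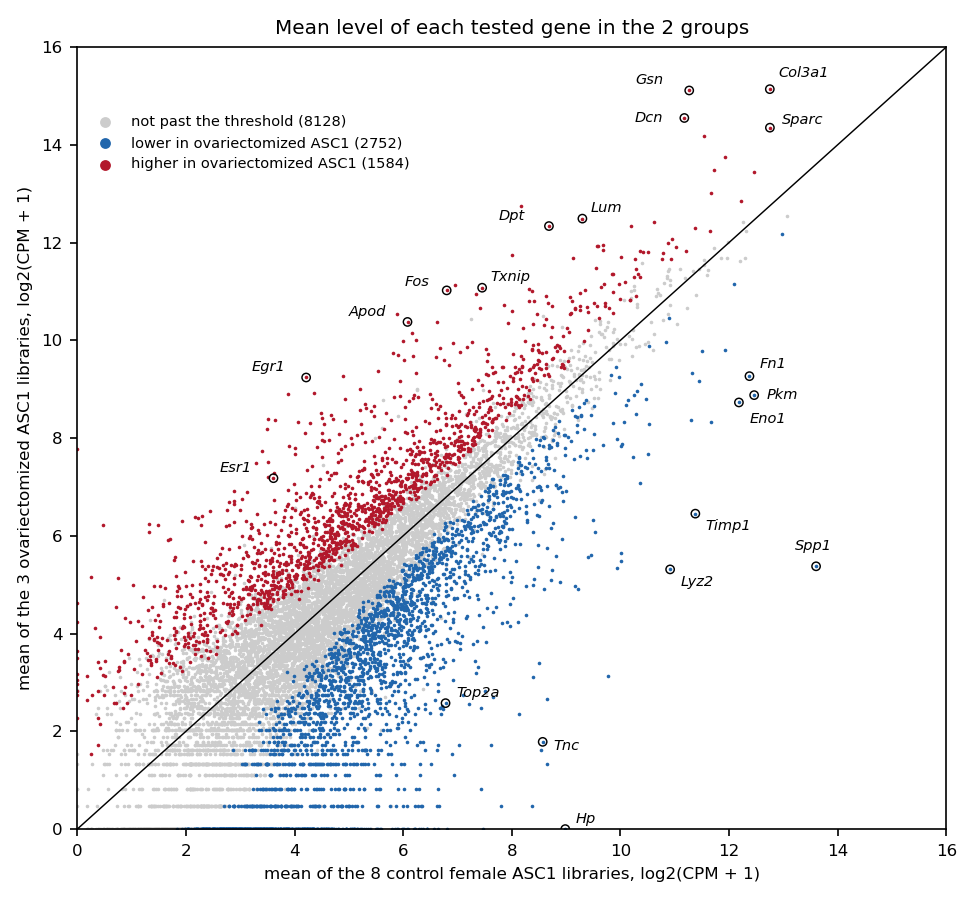
Mean of each tested gene as log2(CPM + 1) in the 8 control female ASC1 libraries (x axis) and the 3 ovariectomized ASC1 libraries (y axis). Red points are the 1584 genes called higher, blue points the 2752 called lower and grey points those not past the threshold; Dcn and Fos lie above the diagonal, Spp1 far below it.

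Among well-expressed, non-overlapping genes, 12 were named on the higher side by the size of their difference, Egr1 and Omd among them, which are described with their groups. Slco2b1, an organic anion transporter, was at 722, 422 and 279 CPM in L4, N4 and P4 against 4.01 to 21.8 CPM in the controls (log2 difference 5.05, adjusted p = 3.7e-17). Nrep, a neuronal regeneration related protein, was at 1826, 1258 and 1362 CPM against 28.0 to 120 CPM (log2 difference 4.66). Chrdl1, a secreted antagonist of bone morphogenetic proteins, reached 350, 441 and 211 CPM against at most 16.1 CPM (log2 difference 4.87). Vtn, the adhesive glycoprotein vitronectin, reached 194, 418 and 260 CPM against at most 15.7 CPM (log2 difference 4.83). Ntf3, the growth factor neurotrophin-3, Lsamp, a neural cell adhesion molecule, Itgbl1, an integrin beta-like secreted protein, and Mlana, a melanocyte antigen, rose by 4.59, 5.25, 4.72 and 6.95. The groups did not overlap in these genes because this was a condition for naming them. Fam198a, a Golgi protein gene, rose by 5.09. Serpina3c also rose, by 5.22, but belongs to a cluster of near-identical serine protease inhibitor genes among which reads can be split.

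On the lower side all 12 leading genes had no read in L4, N4 or P4, so the folds are lower bounds computed at a floor of 3 counts over the 3 libraries, or 2.39 CPM. Hp, the acute-phase protein haptoglobin, had a control median of 631 CPM and was at least 211-fold lower. Ptprn, a phosphatase-family protein of dense-core secretory vesicles, was at 138 to 211 CPM in the controls and at least 73.3-fold lower. The mitotic genes Ccnb1 (cyclin B1) and Aurka (Aurora kinase A) were at least 46.3 and 30.9-fold lower. Tk1 (thymidine kinase), a gene of DNA synthesis, was at least 35.9-fold lower. The epithelial keratins Krt8 and Krt18 were at least 41.2 and 33.9-fold lower, and the Fc receptor Fcgr3 at least 32.5-fold. Lss, the lanosterol synthase of cholesterol synthesis, was at 59.0 to 89.0 CPM in the controls and at least 30.4-fold lower. Against E4 and F4 alone the calls of Hp (2.14 CPM in the lowest control, adjusted p = 0.653), the acid-sensing channel Asic3 (adjusted p = 0.525) and Serpina3g (adjusted p = 0.0787) were lost. Leaving out L4 ended the calls of Krt8 (-9.13), Krt18 (-8.84) and Asic3 (-8.87).

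Fibroblast identity genes were largely higher. Of 9 tested, 7 rose and 2 fell, with a median log2 difference of 1.93 beside -0.34 for all genes. Pdgfra, the receptor that marks fibroblasts, was at 786, 647 and 638 CPM against 232 to 542 CPM (log2 difference 0.82, adjusted p = 0.00715). Cd34, which was part of the sort gate, was at 1782, 1372 and 1666 CPM against 78.7 to 249 CPM (log2 difference 3.23), and Ly6a, the stem cell antigen Sca-1, at 2828, 2946 and 2762 against 345 to 1226 CPM (log2 difference 1.93). All 3 genes were higher in each ovariectomized library than in any control. The exceptions were Pdgfrb (log2 difference -0.76) and fibronectin, described with the matrix. The calls of Pdgfra (0.68) and Pdgfrb (-0.62) were lost without L4, and that of Pdgfrb also without N4 (-0.69) and against E4 and F4 alone (-0.47, adjusted p = 0.349). Pdgfra was 1.49 higher than in E4 and F4. By these markers the gated cell type was present in all 3 libraries.

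Markers of both ASC classes were found among the genes that rose. Dpp4, by which the cells were sorted, was at 30.9, 18.4 and 6.19 CPM in ovariectomized ASC1 and 6.01 to 42.1 CPM in the controls (log2 difference -0.30, adjusted p = 0.74, or 1.55 and 0.189 against E4 and F4). Of 8 markers of ASC1a, 2 rose, Col15a1 by 1.25 and the chemokine Cxcl14 by 2.54, and 6 did not pass, among them G0s2 with -0.03. Of 7 ASC1b markers 4 rose, with a median of 3.14, including Clec11a (84.6, 234 and 192 against 11.7 to 28.1 CPM) and the monooxygenase Fmo2 (259, 289 and 198 against 8.90 to 34.3 CPM). Of 11 ASC2 markers 7 rose, among them Pi16 (158, 285 and 180 against 0 to 94.3 CPM, log2 difference 2.90), Sema3c (log2 difference 3.47) and the complement regulator Cd55 (log2 difference 1.77), and Anxa3 fell by 1.99. Without L4, 3 of the ASC2 markers were called higher in place of 7, and Cd55 (1.53) was not among them. The call of Col15a1 was lost without N4 (1.18), P4 (1.09) or control E4 (1.16). Against E4 and F4 alone 5 ASC1a and 7 ASC1b markers were called higher, and G0s2 had a log2 difference of 3.24. Col15a1 was not called (1.78, adjusted p = 0.0518), and Cxcl14 and Cd55 differed by 1.64 and 3.18.

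Collagen transcripts took a larger share of the counts. Summed over the collagen chains, the ovariectomized libraries held 57332 to 88848 CPM and the controls 10945 to 24274 CPM. Of 24 chains tested, 11 rose, 3 fell and 10 did not pass, and 4 were not tested; the median was 0.96. Col3a1, the chain of type III collagen in loose connective tissue, was at 29048, 35531 and 43551 CPM in L4, N4 and P4. The controls held 2124 to 10260 CPM with a median of 7948, and the groups did not overlap (log2 difference 2.39 ± 0.30 SE, adjusted p = 5.3e-09). Col1a1 and Col1a2, the chains of type I collagen, differed by 1.83 and 1.75. The type VI chains Col6a1, Col6a2 and Col6a3, which form beaded microfilaments around cells, differed by 2.27, 2.37 and 2.43, and Col14a1, a fibril-associated collagen, by 3.81 (497, 564 and 483 against 5.35 to 63.9 CPM). Col3a1 differed by 3.63 and Col14a1 by 6.48 when set against E4 and F4 alone.

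Not all collagens shared this direction. Col4a1 and Col4a2, the chains of the basement membrane, were at 435 to 873 and 285 to 663 CPM in ovariectomized ASC1 and at 377 to 892 and 318 to 675 CPM in the controls, so the groups overlapped (log2 differences 0.06 and -0.09, adjusted p = 0.912 and 0.877). Col8a1, a short-chain network collagen, had no read in the 3 libraries against 12.02 to 57.9 CPM and was at least 13.9-fold lower. Col12a1 and Col16a1, which sit on fibril surfaces, fell by 3.74 and 2.22. Scaling by library size alone gave 9 chains higher and 6 lower, and the call of Col15a1 among the 11 was lost without N4 (1.18), P4 (1.09) or control E4 (1.16) and against E4 and F4 alone, where Col4a2 stood at 0.42 (adjusted p = 0.564).

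Small leucine-rich proteoglycans, which coat collagen fibrils and control their diameter, rose as a group. Of 10 tested, 9 were higher, none was lower, 1 did not pass and 4 were not tested, with a median of 3.28. Lum, lumican, was at 6228, 5200 and 5815 CPM in L4, N4 and P4 against 302 to 960 CPM with a median of 620 (log2 difference 3.19 ± 0.29 SE, adjusted p = 2.6e-13). Ogn (osteoglycin), Aspn (asporin), Ecm2 and Omd (osteomodulin) differed by 3.61, 3.77, 4.36 and 4.93, and in each case the 3 libraries lay above all 8 controls. Bgn, biglycan, the closest relative of decorin, was at 3462, 4695 and 6397 CPM within the span of the controls (3280 to 6143 CPM, log2 difference -0.07, adjusted p = 0.879, or 0.56 and 0.275 against E4 and F4).

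**Figure D3:**
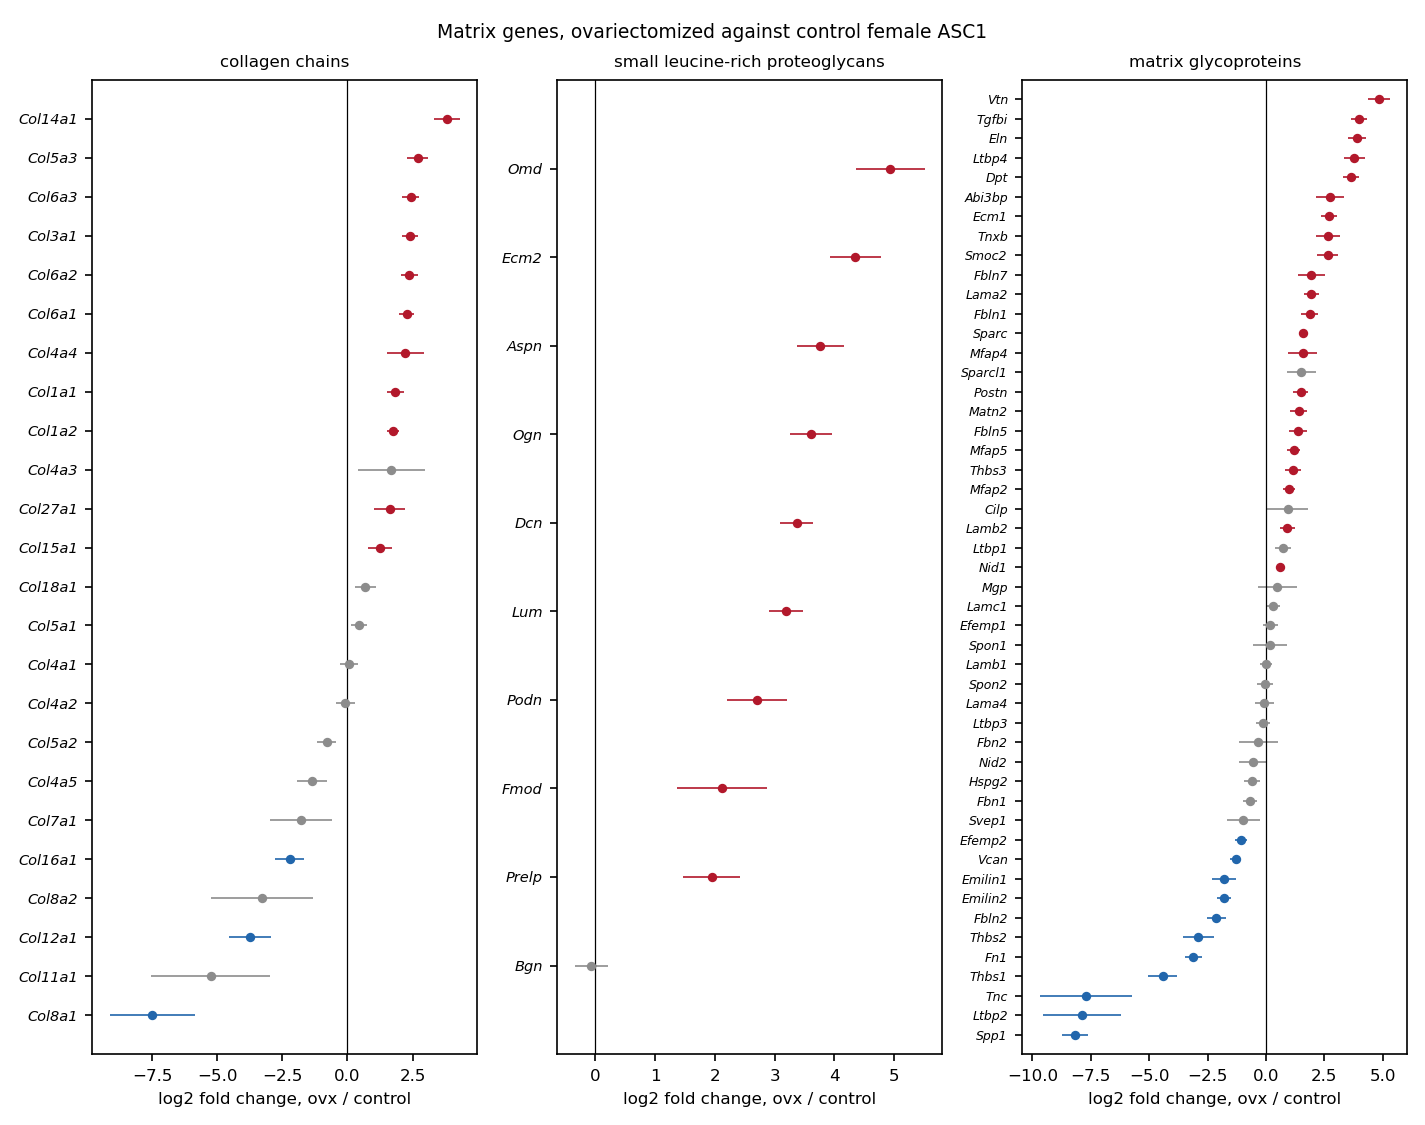
Log2 difference between ovariectomized and control female ASC1 for collagen chains, small leucine-rich proteoglycans and matrix glycoproteins. Points are estimates and error bars are standard errors; red marks genes called higher, blue lower and grey not past the threshold. Decorin, lumican and dermatopontin lie to the right, Spp1, Tnc and Ltbp2 to the left.

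Matrix glycoproteins split into those that rose and those that fell. Of 49 tested, 22 rose, 11 fell, 16 did not pass and 2 were not tested, with a median of 0.60. Dpt, dermatopontin, a decorin-binding protein of the dermis, was at 5336, 4879 and 5301 CPM against 230 to 777 CPM (log2 difference 3.65, adjusted p = 9.8e-13). Sparc, a collagen-binding secreted protein, was at 17107, 20854 and 24652 CPM against 4657 to 8159 CPM (log2 difference 1.60). Eln (elastin), Ltbp4, which takes part in elastic fibre assembly, Tnxb (tenascin-X), Lama2 (the laminin alpha-2 chain) and Tgfbi differed by 3.92, 3.79, 2.66, 1.94 and 3.98. For each of these genes the 3 libraries were above all 8 controls. With E4 and F4 as the only controls 25 members rose and 9 fell with a median of 1.60, and Tnxb differed by 4.69.

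Fibronectin, the thrombospondins and tenascin-C, which are known from wound matrix, were among the glycoproteins that fell. Fn1, fibronectin, was at 629, 491 and 725 CPM against 2361 to 7019 CPM with a median of 6015 (log2 difference -3.11, adjusted p = 7.8e-10), and the difference was -1.95 against E4 and F4. Thbs1 and Thbs2, the thrombospondins, fell by 4.43 and 2.90 and Fbln2 by 2.13 (1.35 lower than E4 and F4). Ltbp2 was at 1.14, 0 and 0 CPM against 98.4 to 347 CPM (log2 difference -7.87). Tnc, tenascin-C, was at 1.14, 0 and 6.19 CPM against 80.0 to 1337 CPM (log2 difference -7.72, adjusted p = 0.0016). Postn, periostin, a matricellular protein also known from wounds, rose by 1.48.

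Among the enzymes that process collagen more genes fell than rose. Of 25 tested, 3 rose, 10 fell, 12 did not pass and 3 were not tested, with a median of -0.87. Higher were the collagen chaperone Serpinh1 (0.63), the procollagen C-proteinase enhancer Pcolce (0.90) and its relative Pcolce2 (2.87). Lower were the crosslinking oxidases Lox (-1.62) and Loxl1 (-1.79), the lysyl hydroxylase Plod3 (-2.14) and the procollagen proteinase Bmp1 (-1.52). Lox was at 208, 197 and 186 CPM against 360 to 793 CPM and did not overlap with the controls. The prolyl hydroxylase subunits P4ha1 and P4hb did not pass (-0.65 and -0.37, adjusted p = 0.107 and 0.178). The count of lower genes was 17 with scaling by library size alone, 6 without L4 and 4 against E4 and F4, where Lox (-0.93, adjusted p = 0.271) and Serpinh1 (0.73, adjusted p = 0.0729) were no longer called and Pcolce and Bmp1 differed by 1.55 and -0.98. Serpinh1 was also not called without L4 (0.66) or N4 (0.59).

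Proteases and their inhibitors moved in both directions, with 12 of 32 tested higher, 5 lower and a median of 0.04, which turned to -0.28 with scaling by library size alone. Timp1, the inducible inhibitor of metalloproteinases, was at 92.6, 124 and 43.3 CPM against 868 to 3685 CPM (log2 difference -4.91, adjusted p = 9.2e-12, or -3.78 against E4 and F4). Timp2 and Timp3, inhibitors of the same family, rose by 1.69 and 2.87. Mmp2, gelatinase A, rose by 1.06, whereas Mmp13, collagenase 3, had no read in the 3 libraries and was at least 7.35-fold lower. Ctsk, cathepsin K, a collagen-degrading protease, was at 1973, 1423 and 1635 CPM against 172 to 351 CPM (log2 difference 2.86, adjusted p = 6.9e-16). The secreted proteases Htra1 and Htra3 rose by 2.74 and 3.25. The counts were 16 higher and 4 lower against E4 and F4 alone, with a median of 1.09 and Timp2 at 2.69.

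Genes of the cell cycle and DNA replication were largely lower. Of 62 tested, 55 fell, none rose and 7 did not pass, with a median of -3.63, or -2.93 with the 15 members without a read in the 3 libraries set to their bound. In 46 of them the 3 libraries lay below all 8 controls (beside 13.1% of all tested genes), and in 28 below all 55 other libraries (beside 4.09%). Promoter windows from 250 bases before to 50 bases after the start are printed for Cdk1 (chr10:69352863-69353162), Mki67 (chr7:135716330-135716629) and Top2a (chr11:99024140-99024439). All 3 hold both the cell cycle homology region TTTGAA and the CCAAT box, which most members with a window do not. The windows are from RefSeq on GRCm38.p6, all from the minus strand and 5′ to 3′, with these motifs in capitals on either strand.
Cdk1: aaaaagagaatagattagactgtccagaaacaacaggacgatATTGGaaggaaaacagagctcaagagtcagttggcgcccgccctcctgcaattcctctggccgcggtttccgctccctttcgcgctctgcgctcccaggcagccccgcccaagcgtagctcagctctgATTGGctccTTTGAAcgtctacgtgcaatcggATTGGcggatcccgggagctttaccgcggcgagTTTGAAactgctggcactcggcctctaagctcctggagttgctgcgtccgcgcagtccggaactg
Mki67: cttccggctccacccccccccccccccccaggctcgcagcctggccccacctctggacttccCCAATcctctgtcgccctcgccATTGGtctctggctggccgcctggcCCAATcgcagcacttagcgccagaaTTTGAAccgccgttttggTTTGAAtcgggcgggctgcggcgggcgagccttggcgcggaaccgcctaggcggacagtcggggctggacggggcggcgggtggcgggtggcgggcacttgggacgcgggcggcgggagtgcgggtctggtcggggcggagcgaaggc
Top2a: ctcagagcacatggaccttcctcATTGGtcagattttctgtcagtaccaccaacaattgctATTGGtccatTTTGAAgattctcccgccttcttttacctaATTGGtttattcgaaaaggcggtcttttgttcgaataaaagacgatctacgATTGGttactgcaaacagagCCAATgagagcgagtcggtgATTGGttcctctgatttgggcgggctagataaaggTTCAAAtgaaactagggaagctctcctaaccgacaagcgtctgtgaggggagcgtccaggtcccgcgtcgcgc

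In Cdk1 the first base of TTTGAA was at -71 and -15 from the start, and in Mki67 at -116 and -98. The windows of Ccnb1 and Mcm5, which are not printed, held CCAAT without TTTGAA, and that of Tk1 held neither. Both motifs were found in 21 of the 49 members with a window (42.9%), compared with 6.02% of the 9459 tested genes with a window and 6.95% of all 32851 windows. CCAAT alone was found in 75.5% of the members, 43.4% of tested genes and 37.4% of all windows. Of the collagen chains 1 of 23 held both motifs (4.35%) and of the immediate early genes 1 of 20 (5.0%). In the 3 windows printed no match of one motif shared a base with the other, and a match describes the window only.

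The mitotic genes were at or near 0 in the 3 libraries. Mki67, which encodes the proliferation antigen Ki-67, was at 1.14, 4.59 and 0 CPM in L4, N4 and P4 against 26.7 to 80.2 CPM with a median of 40.1 (log2 difference -4.65 ± 0.86 SE, adjusted p = 2e-05, or -5.37 against E4 and F4). Top2a, topoisomerase II alpha, was at 5.71, 9.18 and 0 CPM against 70.1 to 187 CPM (log2 difference -4.27, adjusted p = 8.4e-08). Cdk1, the kinase that drives entry into mitosis, was at 1.14, 0 and 12.4 CPM against 38.7 to 238 CPM (log2 difference -5.30, adjusted p = 3.3e-07). None of the 3 genes overlapped between the groups. The spindle and chromosome genes Tpx2, Kif20a and Cdc20 fell by 6.39, 5.82 and 6.4, and Birc5 (survivin), with no read, was at least 26.4-fold lower.

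Apart from Tk1, which had no read in L4, N4 or P4, smaller log2 differences were measured for the named genes of DNA synthesis and of the G1 phase. Mcm5 and Mcm7, subunits of the replicative helicase, fell by 2.60 and 2.11 and Rrm1, a ribonucleotide reductase subunit, by 1.76. Pcna, the sliding clamp, was at 81.1, 55.1 and 6.19 CPM against 59.4 to 176 CPM, so L4 lay within the controls (log2 difference -0.99, adjusted p = 0.0187). Cdk4 fell by 1.34, and its partner Ccnd2, cyclin D2, was at 211, 321 and 229 CPM against 237 to 367 CPM (log2 difference -0.31, adjusted p = 0.299). The Pcna call was lost without N4 (-0.94) or P4 (-0.58), and the difference was -1.61 against E4 and F4. A voom fit with sample quality weights called 26 members lower in place of 55.

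**Figure D4:**
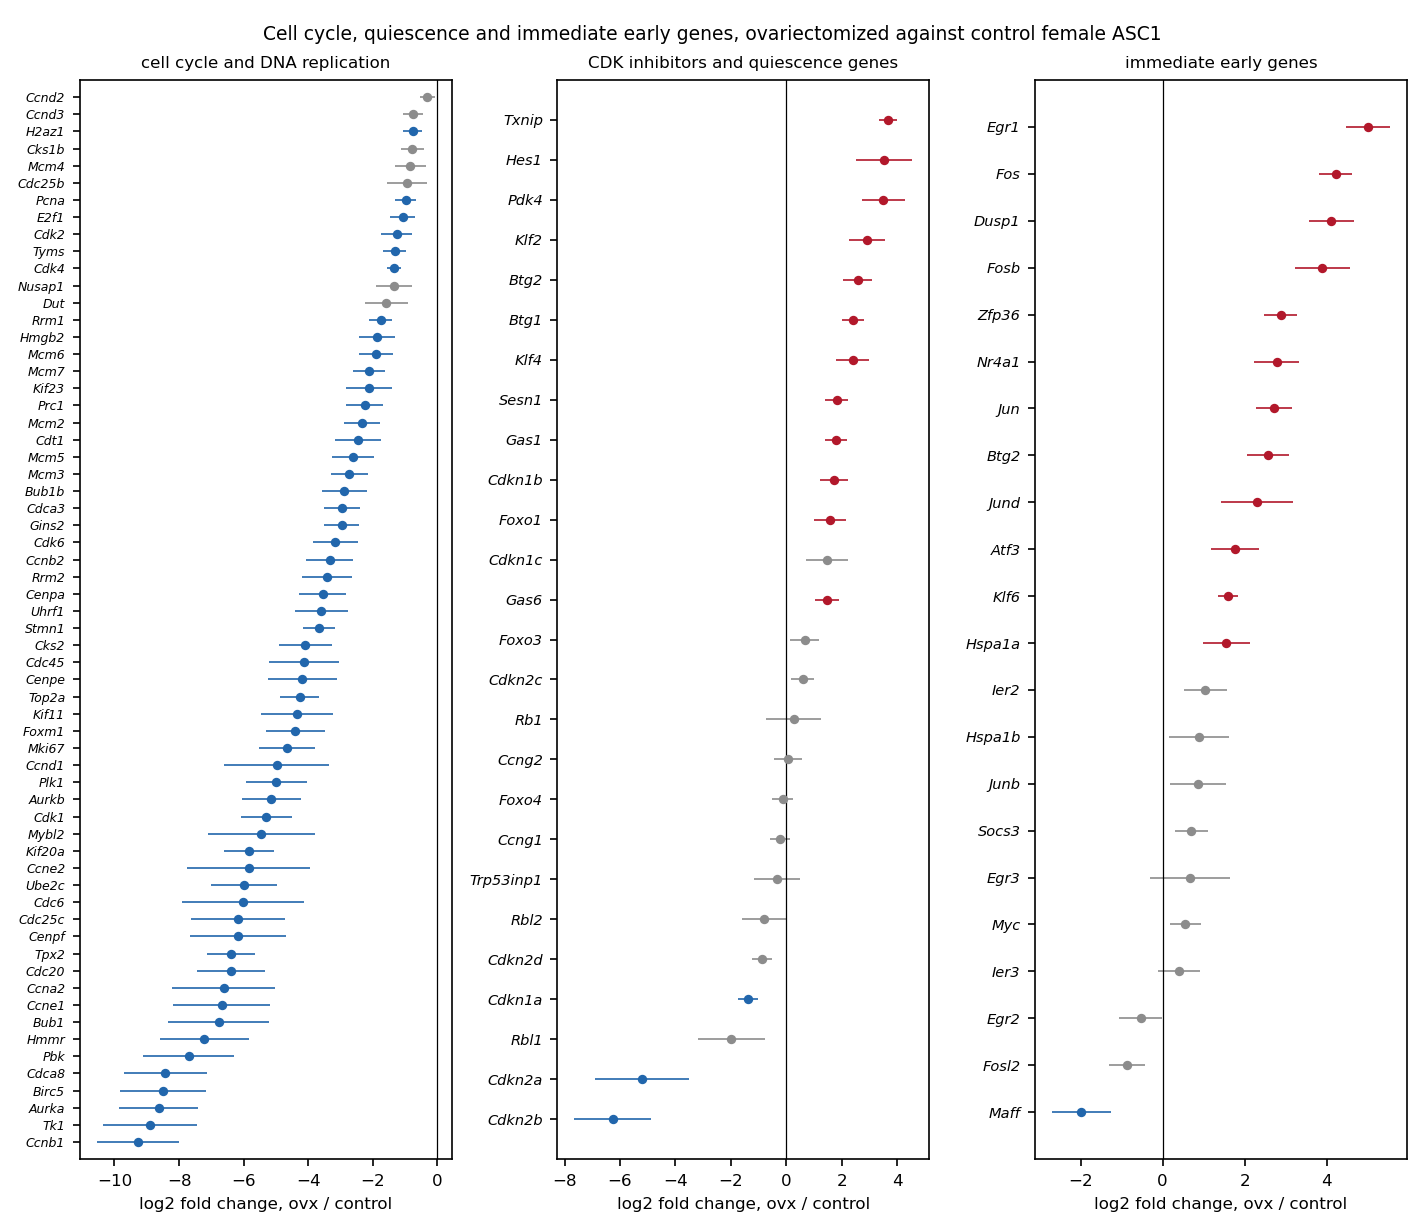
Log2 difference between ovariectomized and control female ASC1 for genes of the cell cycle, of quiescence and of the immediate early response. Points are estimates and error bars standard errors; red marks genes called higher, blue lower and grey not past the threshold. The mitotic genes lie to the left and Fos, Egr1 and Txnip to the right.

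Cyclin-dependent kinase inhibitors did not share a direction, whereas several genes known from resting cells rose. Of 26 genes in this list 12 rose, 3 fell, 11 did not pass and 1 was not tested, with a median of 1.06. Txnip, an inhibitor of thioredoxin and of glucose uptake that is high in resting cells, was at 2876, 1960 and 1635 CPM against 82.2 to 285 CPM (log2 difference 3.65, adjusted p = 2.1e-13, or 4.45 against E4 and F4). The antiproliferative genes Btg1 and Btg2 rose by 2.41 and 2.58, the growth-arrest gene Gas1 by 1.79 and the transcription factors Klf2 and Klf4 by 2.92 and 2.38. Cdkn1b, the inhibitor p27, was at 181, 129 and 86.7 CPM against 10.02 to 117 CPM, with 1 library inside the control range (log2 difference 1.72, adjusted p = 0.00584), and this call was lost without L4 (1.37), as were those of Btg2 (1.61) and Gas1 (0.51). Cdkn1a, the inhibitor p21, fell by 1.39, and Cdkn2b, the inhibitor p15, had no read in the 3 libraries. The list counted 6 higher members without L4. Cdkn1b differed by 2.64 and Klf4 by 4.02 against E4 and F4 alone.

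Immediate early genes, which are transcribed within minutes of a stimulus or of cell dissociation, were high. Of 22 tested 12 rose, 1 fell, 9 did not pass and 2 were not tested, with a median of 1.57, and their summed level was 3666 to 5468 CPM against 564 to 922 CPM in the controls. Fos was at 2206, 2111 and 1913 CPM against 65.0 to 213 CPM with a median of 89.8 (log2 difference 4.22 ± 0.41 SE, adjusted p = 1.7e-12, or 4.48 against E4 and F4). Egr1 was at 957, 413 and 440 CPM against 6.56 to 31.0 CPM (log2 difference 5.01, adjusted p = 6.1e-11). The AP-1 members Jun and Fosb, the phosphatase Dusp1, the mRNA-decay factor Zfp36 and the nuclear receptor Nr4a1 differed by 2.73, 3.89, 4.12, 2.88 and 2.79. The groups did not overlap for any of these genes. Junb was at 174, 91.8 and 99.1 CPM against 32.6 to 138 CPM and did not pass (0.86, adjusted p = 0.33). Fos reached 2076 CPM in the highest of the 55 other libraries, so its level in the 3 libraries was not unmatched in the series. Whether the time between dissection and lysis differed between the groups was not tested.

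Transcripts of glycolytic enzymes were largely lower. Of 23 genes of glycolysis and the hypoxia response, 18 fell, 1 rose, 4 did not pass and 1 was not tested, with a median of -2.23. The summed level was 4098 to 4849 CPM against 21207 to 29157 CPM. Pkm, pyruvate kinase, was at 400, 464 and 545 CPM against 4417 to 6676 CPM with a median of 5938 (log2 difference -3.59 ± 0.25 SE, adjusted p = 2.6e-17, or -3.34 against E4 and F4). Eno1, enolase, was at 397, 427 and 446 CPM against 4054 to 5042 CPM (log2 difference -3.46, adjusted p = 3.7e-17). Neither gene overlapped between the groups. The glucose transporter Slc2a1, the phosphofructokinase Pfkl, Gapdh, Pgk1, Aldoa and Ldha fell by 3.44, 4.55, 3.35, 2.23, 1.73 and 2.28, and the lactate exporter Slc16a3 was at 0, 22.9 and 0 CPM against 234 to 407 CPM. The hypoxia-inducible genes did not share one direction, with Vegfa at -3.90, Ndrg1 at 1.30 and Adm at -0.04 (adjusted p = 0.923). Ndrg1 was not called without L4 (1.15) and differed by 2.34 against E4 and F4.

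Transcripts of cholesterol genes were largely lower as well, with 12 of 20 called lower, none higher, 8 not past the threshold and a median of -1.33. Fdps and Fdft1, which make farnesyl diphosphate and squalene, fell by 3.16 and 3.79, and the demethylase Cyp51 fell by 4.96. Insig1, a feedback regulator of sterol synthesis, was at 37.7, 36.7 and 43.3 CPM within the controls (-0.33, adjusted p = 0.668).

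Adipogenic and lipid genes did not move as a group, with 3 of 28 tested higher, 6 lower, 19 not past the threshold, 4 not tested and a median of -0.15. Pparg, the master regulator of adipogenesis, was at 14.9, 22.9 and 18.6 CPM against 6.42 to 19.3 CPM (log2 difference 0.63, adjusted p = 0.503), and Lpl, lipoprotein lipase, at 2005, 1707 and 1864 CPM against 224 to 1559 CPM (0.67, adjusted p = 0.401). Against E4 and F4 alone Lpl was called higher, by 2.94 (adjusted p = 0.0153), and Fabp4 differed by 2.79 and Fabp5 was lower. Fabp4, an adipocyte fatty acid binding protein, rose by 1.48, and its relative Fabp5 fell by 3.84 (32.0, 45.9 and 18.6 against 76.1 to 789 CPM). The Fabp4 call was lost without L4 (1.1). The desaturase Scd2 fell by 2.92. Apod, the lipid carrier apolipoprotein D, was at 1531, 1336 and 1115 CPM against 13.1 to 116 CPM and rose by 4.26 (adjusted p = 8.4e-13).

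The main estrogen receptor was higher in ovariectomized ASC1. Esr1, estrogen receptor alpha, was at 193, 115 and 124 CPM in L4, N4 and P4 against 1.56 to 26.2 CPM with a median of 9.67 (log2 difference 3.91 ± 0.47 SE, adjusted p = 1.4e-09, or 3.12 against E4 and F4). The groups did not overlap. Pgr, the progesterone receptor and a known target of estrogen receptor alpha, had no read in the 3 libraries and 0 to 13.1 CPM in the controls, a range in which the test did not pass (adjusted p = 0.341). Over 18 receptors and steroid-converting enzymes tested, 4 rose, 1 fell, 13 did not pass and 5 were not tested, beside 12.7% higher and 22.1% lower over all tested genes. Their median was 0.03, which turned to -0.30 with scaling by library size alone and to -0.41 without L4. Against E4 and F4 alone 7 rose and 4 fell. Hsd17b11, a 17-beta dehydrogenase, rose by 1.52, or by 2.77 against E4 and F4.

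Genes induced by glucocorticoids were mostly higher, with 7 of 11 rising, 3 falling and a median of 1.42. Tsc22d3, the glucocorticoid-induced leucine zipper, was at 417, 482 and 223 CPM against 19.7 to 56.1 CPM (log2 difference 3.15, adjusted p = 2.6e-13), and Klf9, Sgk1 and Zbtb16 rose by 1.87, 1.83 and 4.07. Fkbp5 and Mt2, which belong to the same list, fell by 1.56 and 3.75. Without L4 and also against E4 and F4 alone, 4 members were called higher, and Zbtb16 lost its call without L4 (3.65). Sgk1 was not called against E4 and F4 alone (1.01, adjusted p = 0.0755), and Mt2 then differed by -1.91.

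Genes that the study found to be dimorphic between male and female ASC were mixed, and those lists came from the same study. Of 25 male-enriched genes tested, 6 rose, 8 fell, 11 did not pass and 2 were not tested, with a median of -0.80 that turned to 1.9 against E4 and F4 alone. C7, a component of the membrane attack complex, was at 50.3, 285 and 105.3 CPM against 0 to 20.8 CPM (log2 difference 3.64, adjusted p = 1.1e-06, or 4.04 against E4 and F4). Prelp, a proteoglycan, was at 273, 395 and 533 CPM against 7.49 to 211 CPM and rose by 1.95, or by 5.26 against E4 and F4. Of 13 listed female-enriched genes 1 rose, Xist by 2.36, 3 fell and 9 did not pass, with a median of -1.37, or -0.99 with genes without a read at their bound. Esr1 and Hoxa10, which the study also reports as enriched in female ASC, are not in this list, and both were called higher against all controls. The Y-linked and Xist reads of the libraries labelled control female stand beside these counts. Xist was not called without L4 (1.69) or against E4 and F4 alone (0.79, adjusted p = 0.618). Against E4 and F4 none of the 13 listed female-enriched genes was called higher and 3 were lower. Esr1 was then 3.12 higher, and Hoxa10 was not called (1.84, adjusted p = 0.0862).

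Complement genes moved in both directions. Of 23 complement genes tested 11 rose, 6 fell, 6 did not pass and 5 were not tested, with a median of 1.06. The proteases C1ra (1666, 1840 and 1821 against 102 to 663 CPM) and C1s1 (2338, 1560 and 1461 against 150 to 460 CPM) rose by 2.38 and 2.49, C2 by 3.18, C4b by 2.30 and their inhibitor Serping1 by 2.14. For these genes the 3 libraries lay above all 8 controls. C4b reads can be shared with its near-identical copy. Against E4 and F4 alone 11 members rose and 4 fell with a median of 2.39, and C1ra, C4b and Serping1 differed by 3.75, 3.81 and 4.30. A voom fit with sample quality weights called 7 higher and 4 lower with a median of 0.35. Cfp, properdin, a product of myeloid cells, fell by 5.24 (2.29, 0 and 0 against 23.5 to 98.2 CPM).

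Single genes of the insulin-like growth factor, BMP and Wnt systems changed. Of all tested genes 12.7% rose and 22.1% fell, so the share of TGF-beta and BMP genes that fell was near the background. Igf1 was at 639, 762 and 694 CPM against 36.4 to 328 CPM (log2 difference 1.63, adjusted p = 0.0038), and the binding proteins Igfbp5 and Igfbp6 rose by 3.90 and 1.94, whereas the receptor Igf1r fell by 1.17 (-0.81 and not called without L4, -1.11 and not called against E4 and F4, adjusted p = 0.0924). Igf1 was 3.71 higher than in E4 and F4. In all, 5 of 10 genes of that system rose and 2 fell (median 1.16), and without N4 3 were called higher. Of 28 TGF-beta and BMP genes 6 rose and 6 fell (median -0.10); Gdf10, a BMP-like ligand, rose by 3.71 (437, 367 and 204 against 6.56 to 50.8 CPM), and the activin subunits Inhba and Inhbb fell by 5.40 and 5.94. Of 25 Wnt genes 6 rose and 3 fell (median 0.12, or -0.16 with scaling by library size alone), with the ligand Wnt5a (2.61), the receptor Fzd4 (3.12) and the secreted inhibitors Sfrp2 (1.76) and Sfrp4 (3.35) higher. Sfrp1 fell by 3.29 against all controls and had a log2 difference of 2.02 against E4 and F4 alone (adjusted p = 0.282), and its call was lost without L4 (-3.60).

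Chemokines and inflammatory genes were split, with 11 of 27 tested higher, 8 lower and a median of 0.58. Cxcl12, the stromal niche chemokine, was at 3434, 2492 and 1895 CPM against 279 to 1360 CPM (log2 difference 1.49, or 1.22 and not called without L4, or 3.00 against E4 and F4), and Cxcl1, Tnfaip6 and the NF-kappa-B inhibitor Nfkbia rose by 3.19, 3.43 and 2.25. Ccl2, a monocyte chemoattractant, fell by 3.38 (94.9, 55.1 and 49.5 against 302 to 1633 CPM) and Csf1, the macrophage growth factor, by 3.18. The acute-phase gene Saa3 fell by 5.96 and had a log2 difference of 0.83 against E4 and F4 (adjusted p = 0.88), and was not called without L4 (-6.24). Of 24 interferon and antigen presentation genes 7 rose and 4 fell (median 0.43), among them B2m (1.52), H2-K1 (1.26) and the immunoproteasome subunit Psmb9 (2.22), and 4 rose and 1 fell without L4 while 10 rose and none fell against E4 and F4, with H2-K1 at 2.42.

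Markers of other cell types did not share one direction, and their part in the results was not tested. Of 5 erythroid and muscle markers tested 4 rose, of 3 lymphatic endothelial markers 1 and of 2 Schwann cell markers 1, and none of these fell. Of 12 macrophage and leukocyte markers tested 8 fell, 1 rose and 3 did not pass, with a summed level of 183 to 409 CPM against 758 to 3759 CPM. Lyz2, lysozyme, was at 16, 32.1 and 68.1 CPM against 574 to 2956 CPM (log2 difference -5.88), and Cd68 and Csf1r were at 0 in N4 and P4. Against E4 and F4 alone 3 macrophage markers were called lower, and in the voom fit with quality weights 5. Cd74, the invariant chain of class II antigen presentation, went the other way, at 131, 225 and 297 against 13.3 to 38.1 CPM. Of 9 endothelial markers 4 fell and none rose, with Pecam1 at 11.4, 0 and 0 CPM (not called against E4 and F4, -1.21, adjusted p = 0.238) and a summed level of 27.5 to 59.4 against 82.4 to 221 CPM. All 6 mammary epithelial markers were without a read in the 3 libraries, against a sum of 77.9 to 887 CPM in the controls, and 4 of them were called lower, or none without L4.

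Among mural markers 2 of 10 rose and 3 fell, beside 12.7% higher and 22.1% lower over all tested genes. Kcnj8 and Abcc9, the channel subunits that mark pericytes, rose by 2.85 and 4.22 (70.9, 110 and 86.7 against 0 to 24.2 CPM, and 91.4, 115 and 43.3 against 0 to 16.3 CPM). Acta2 and Tagln, of smooth muscle and of activated fibroblasts, fell by 4.33 and 4.06 (54.9, 73.4 and 18.6 against 665 to 1434 CPM for Acta2). S100b, a glial calcium-binding protein, rose by 4.38. The globins Hba-a1 and Hbb-bs, made in red cell precursors, were at 42.3, 303 and 384 and at 64.0, 367 and 396 CPM against at most 48.4 and 65.3 CPM, and reads of Hba-a1 can be shared with its copy.

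The difference in ovariectomy effect between ASC1 and ASC2 was tested with an interaction term, which shares the 3 libraries and the ASC1 controls with the comparison above. The labels of ASC2 also went against transcripts in part. Of the 8 libraries labelled control female ASC2, 6 held at least 20 CPM summed over the Y-linked genes and 3 held Tcf21 reads. Of the 8 labelled ovariectomized ASC2, 4 held Tcf21 reads and none a Y-linked read. The effect was higher in ASC1 than in ASC2 for 1575 genes (12.6%) and lower for 2759 (22.1%). In ASC2 itself 81 genes rose (0.65%) and 180 fell (1.44%), and 1655 had an unadjusted p below 0.05. Dcn fell by 0.98 in ASC2 (adjusted p = 0.00505), and its effects differed by 4.35. Fos and Egr1 fell in ASC2 by 1.87 and 1.62 and their effects differed by 6.09 and 6.63. Pkm was 0.54 higher in ASC2 (adjusted p = 0.0295), with a difference of -4.14. Spp1, Mki67 and Esr1 did not pass in ASC2 (-0.07, -0.42 and -0.59, adjusted p = 0.962, 0.627 and 0.509), and their effects differed by -8.11, -4.23 and 4.49. Of the cell cycle genes 52 had a lower effect in ASC1, of the collagen chains 11 a higher and 5 a lower one, of the small leucine-rich proteoglycans 8 a higher one and of the glycolysis genes 18 a lower one.

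The same 3 libraries were also set against the libraries labelled castrated male ASC1 and control male ASC1. Those labelled castrated male held 0 to 4 Y-linked and 13 to 97 Xist reads, which goes against that label, and those labelled control male 5 to 77 Y-linked and 0 to 82 Xist reads. Against castrated male ASC1 1801 genes were higher (14.4%) and 2996 lower (24.0%), and against control male ASC1 1626 were higher (13.0%) and 2812 lower (22.6%). Dcn was 3.66 and 2.87 higher on the log2 scale, Col3a1 3.57 and 2.94 higher, Fos 5.54 and 3.53 higher and Esr1 3.12 and 3.49 higher, in that order. Spp1 was at -7.51 and -8.33, Mki67 at -5.24 and -5.32 and Pkm at -3.71 and -3.63. Of the cell cycle genes 54 and 57 were lower, of the collagen chains 12 and 11 higher, and of the small leucine-rich proteoglycans 9 and 9 higher. C7 was 5.61 higher than in castrated male ASC1, while against control male ASC1 it did not pass (-0.48, adjusted p = 0.514).

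**Figure D5:**
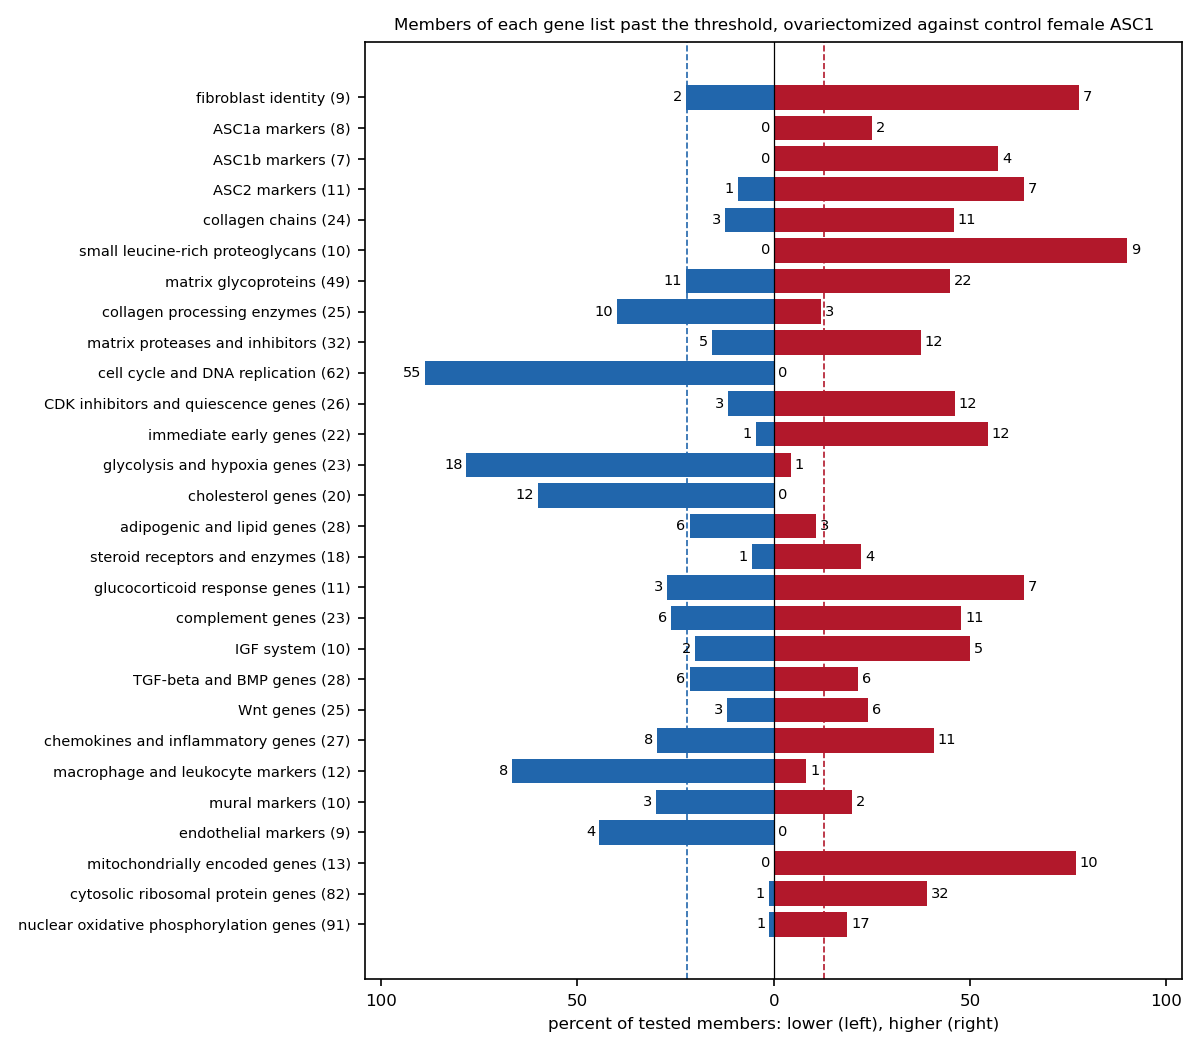
Share of the tested members of each gene list called higher (red, to the right) or lower (blue, to the left) in ovariectomized against control female ASC1, in percent. Dashed lines mark the shares of all 12464 tested genes, 12.7% higher and 22.1% lower; small leucine-rich proteoglycans and the cell cycle lie at opposite ends.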

How the data were processed

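Bulk SmartSeq3 RNA-seq libraries of sorted iwat ASC were analysed from 1 deposited table with 58 libraries and 56953 genes, in which 52029 identifiers had a matched symbol. Per the labels, the submitters' processing notes name STAR 2.7.10a, Salmon 1.9.0, FastQC 0.11.9, MultiQC 1.12, SAMtools and bcl2fastq with GRCm39. The values are estimated counts as deposited by the authors, not normalised, and 15% of the values above 0 are not whole; they were rounded. Totals were 106562 to 1421518 counts per library. The 29 cultivated libraries of the study were not analysed here.

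The 12464 genes that reached 5 reads in over 3 libraries were fitted in 1 model over 8 groups with edgeR 4.0.16 (R 4.3.3), TMM normalisation and the quasi-likelihood test, adjusted after Benjamini-Hochberg. The scripts were tested on simulated data. The biological coefficient of variation was 35.6%. The spread of all groups was shared, so that of the 3 ovariectomized libraries alone had little weight. A gene was called at an adjusted p below 0.05. Library facts were compared with exact permutation tests in scipy 1.17.1. Every member of the gene lists could be named, and besides them up to 12 genes in each direction with the largest log2 difference among called genes with a mean of at least 50 CPM in the higher group, a read in each of its libraries and no overlap between the groups. The members and lists were chosen with earlier results of these data known. Lists were described by counts and medians with no set test. Alternatives were DESeq2 1.42.0 with its size factors, limma 3.58.1 voom fits, other filters and scalings, thinned counts and left-out libraries. Restricting the controls to E4 and F4 and thinning for detected genes were chosen after seeing the data. Within ovariectomized ASC1 and within control female ASC1 no 2 libraries were copies of each other (lowest chi-square per degree of freedom 1.92 over 31 pairs). Pairs across groups and within the other groups were not checked. Promoter windows were taken from RefSeq on GRCm38.p6, a different build from that of the counts, and matched by symbol; 166 of the named genes had a window. Some items are not reported here.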

Additional observations from a re-analysis of the deposited data

Results flagged for a closer look

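Among 19 sets of library values tested for a single far value, 1 was found: 10496 genes were detected in control library A4, the shallowest control with 139822 counts, below the other 7 controls. Chance gives such a value in about 1 of 20 sets.

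The ovariectomy effect differed between ASC1 and ASC2 by an interaction term in edgeR's test, higher in ASC1 for 1575 genes and lower for 2759, and both effects rest on libraries with doubtful labels. On the log2 scale the effects, ASC1 minus ASC2, differed by 4.35 for Dcn, 3.24 for Col3a1, 4.97 for Dpt, 6.09 for Fos and 4.49 for Esr1. They differed by -8.11 for Spp1, -4.23 for Mki67 and -4.14 for Pkm.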

How the results depend on the processing

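Of 4336 genes called between ovariectomized and control female ASC1, a voom fit with sample quality weights left 2198 calls and thinning every library left 1794 of 7044 tested genes. Leaving out 1 library at a time gave 2328 (without L4) to 4355 calls. For the difference of the ovariectomy effect between ASC1 and ASC2 (4334 calls) the voom fit gave 2651 and left-out libraries 2715 to 4216. Against castrated male ASC1 (4797 calls) the numbers were 2882 and 2801 to 4516, and against control male ASC1 (4438 calls) 2552 and 2549 to 4264, with the lowest count without L4 each time. Fewer samples or genes enter the left-out and thinned fits; for the voom fit the cause was not tested. Every other setting of the first comparison gave 3449 to 4812 calls, and E4 and F4 as the only controls gave 3565. With these 2 controls the sign turned for G0s2 (3.24), Saa3 (0.83) and Sfrp1 (2.02), and the cause was not tested. Of 207 called genes among 225 named and tested, 166 kept their call and direction under every alternative run, and 41 did not. No paired analysis was possible because the labels carry wells and no animal or replicate number shared between groups. A voom fit with a correlation within plate rows (0.0522) gave 3922 calls, and 4042 for the difference between ASC1 and ASC2, the latter chosen after seeing the data. Depth limits the genes without a read, for which only bounds were given, and 3 libraries against 8 cannot give an exact permutation p below 0.0121.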

Other observations

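Of 13 mitochondrially encoded genes tested, 10 rose in ovariectomized ASC1 and none fell, with a median log2 difference of 1.82. Of 91 nuclear genes of oxidative phosphorylation 17 rose (beside 12.7% of all tested genes), 1 fell and 73 did not pass, with a median of 0.15, and with scaling by library size alone 5 rose and 11 fell, and without L4 7 rose. Of 82 cytosolic ribosomal protein genes 32 rose, 1 fell and 49 did not pass, with a median of 0.65, and 15 rose without L4, 18 with scaling by library size alone and 19 against E4 and F4. The medians stand beside -0.34 for all tested genes.

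None of 10 anterior Hox genes (paralogue groups numbered up to Hox8) passed, and of 7 posterior ones 2 rose, among them Hoxa10 by 2.99, while none did so without L4 (2.04 for Hoxa10) or against E4 and F4 alone. Of 9 visceral depot and mesothelial genes none passed, Tcf21 included (-6.85, adjusted p = 0.0816 in edgeR's test). Of 9 receptors of Spp1 4 fell (beside 22.1% of all tested genes) and none rose. Of 9 renin-angiotensin genes 4 rose and 1 fell, with Agtr1a, the angiotensin receptor, at 86.9, 91.8 and 43.3 CPM against 0 to 12.02 CPM (log2 difference 4.17) and the aminopeptidase Anpep 1.5 higher.

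Gsn, which encodes the actin-severing protein gelsolin, was singled out after its values were seen. It differed by 3.84 on the log2 scale (adjusted p = 8.4e-13).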
